A study of Mus musculus with 10 samples.

Results

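Irf8, Usp18, Rsad2 and Ifi27 are 4 genes of the interferon response, and their probes were examined on arrays of prefrontal cortex from arthritic and control mice. The probes were found by Entrez ID in the platform's probe annotation, whatever their values. Each gene had 1 probe among the 9078 listed probes: Irf8 (Entrez 15900), Usp18 (Entrez 24110), Rsad2 (Entrez 58185) and Ifi27 (Entrez 52668). All 4 probes gave a ratio in each of the 3 replicates and entered the test, as did 45.4% of the listed probes.

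The mice were males of DBA/1, an inbred strain in which injected type II collagen provokes arthritis, and were 8 weeks old when injected. Control mice received 200 µl of Complete Freund's adjuvant intradermally, and collagen mice received 100 µl of type II collagen mixed with 100 µl of the adjuvant. Both groups received lipopolysaccharide (LPS), a bacterial product that itself induces interferon, at day 24. The comparison therefore sets adjuvant and LPS with collagen against a larger volume of adjuvant with LPS, and no group without LPS was analysed here. Each of the 10 arrays carried collagen RNA and control RNA together in a pair of dyes, Cy5 and Cy3. The arrays form 5 dye-swap pairs, in which collagen RNA was on Cy5 on one array and on Cy3 on the other. Pairs 1 and 4 carry replicate number 1, pairs 2 and 5 carry number 2, and pair 3 alone carries number 3. With the number of mice behind each replicate not given in the sources used here, the p-values measure the spread between these samples, which may be technical. The files name their channels A and B. A was read as Cy3 and B as Cy5, after the order of the labels. Each direction is therefore only likely, and every sign turns if the letters run the other way.

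The label that all mice were male was set against Xist, the RNA of the inactive X chromosome, which is a mark of female cells. Of 2 Xist probes, one gave log2 ratios of collagen over control of 2.50 and 6.10 on the arrays of pair 3 and 6.65 and 4.98 in pair 4, higher in collagen RNA under both dyes. Its intensities at the lowest gain in pair 3 were 652820 for collagen against 30634 for control RNA, and 4854421 against 78826 on the swapped array. The 6.65 rested on 1 usable control reading. In pair 5 this probe gave 1.73 on 1 array and was read in collagen RNA alone on the other. In pair 1 it gave 1.72 on 1 array and was read in control RNA alone on the other. Pair 2 gave it no ratio. The other Xist probe differed from it: it gave 1.40 and 0.38 in pair 3 and -0.20 on the single array measured in pair 4. It gave 1.98 and 2.16 in pair 1, -0.15 and 0.19 in pair 2, and 0.12 and 1.11 in pair 5. The first probe thus goes against the male label most clearly for the collagen RNA of pairs 3 and 4, where both arrays gave ratios. Whether the RNAs differ in sex was not tested. The Y-linked gene Kdm5d was read in both RNAs on all 10 arrays, and its ratio followed the channel. Uty, another Y-linked gene, was read mostly in channel A. With collagen RNA in channel A it gave 3 usable collagen readings in pair 3 and 3 in pair 4. With collagen RNA in channel B it gave 0 in pair 3 and 1 in pair 4. Results are therefore also given without pairs 3 and 4, an alternative added after seeing the data. It keeps pairs 1 and 5, where the first Xist probe was also higher in collagen RNA on the 1 array with a ratio. Of 4098 probes measured without pairs 3 and 4, 0 passed limma's adjusted threshold of 0.05, and 191 had an unadjusted p below it.

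Interferons are secreted proteins that alert cells to viruses and bacteria. Type I interferons bind the receptor Ifnar1 and Ifnar2, and interferon gamma binds Ifngr1 and Ifngr2. The receptors activate Jak kinases and Stat transcription factors, which enter the nucleus and bind interferon-stimulated response elements (ISRE) or gamma-activated sites (GAS) in the promoters of target genes. In brain, microglia, the resident macrophages, respond strongly to type I interferon. Irf8 is a transcription factor of the interferon regulatory factor family that macrophages and microglia need to form, and interferon gamma induces it. Usp18 is a protease that removes the ubiquitin-like protein Isg15 from its targets, and it also dampens type I interferon signalling at the receptor. Rsad2, also called viperin, is a radical SAM enzyme that makes a nucleotide analogue which stops viral RNA synthesis. Ifi27 is a small hydrophobic membrane protein induced by type I interferon.

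The RefSeq promoter table of GRCm38.p6 held promoters for 2 of the 4 genes, Rsad2 and Irf8. The windows are shown because they hold matches to the motifs of the pathway, which are in capitals. The motifs searched on both strands were the ISRE core, which is GAAA, any 2 bases and GAAA again, and the GAS, which is TTCNNNGAA with N for any base, in the 250 bases before the start of transcription. The Rsad2 window lies at chr12:26456508-26456627 on the minus strand, from 175 to 56 bases before the start, and holds 1 ISRE core on the opposite strand. The Irf8 window lies at chr8:120736140-120736259 on the plus strand, from 218 to 99 bases before the start, and holds 2 GAS, a motif that reads the same on both strands. A second Irf8 start in the table holds neither motif.
Rsad2: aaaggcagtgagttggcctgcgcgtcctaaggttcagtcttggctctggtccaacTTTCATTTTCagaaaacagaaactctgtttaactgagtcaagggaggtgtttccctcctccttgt
Irf8: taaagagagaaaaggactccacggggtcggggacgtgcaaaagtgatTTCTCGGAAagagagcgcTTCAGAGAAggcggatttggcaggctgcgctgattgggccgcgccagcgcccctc
Of all 32851 promoters in the table, 2.98% held an ISRE core and 7.02% a GAS in the same 250 bases. A match describes letters in a window and is not a site shown to be bound.

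The first question for weakly expressed genes is whether the arrays saw them at all. Each array was read 3 times at rising gain, so a probe has 30 readings in each channel. A reading was usable when its spot carried no flag for a missing or background-level signal and its background-corrected intensity was above 0. Irf8 was usable in 27 readings of channel A and 15 of channel B. Usp18 was usable in 25 and 20, Rsad2 in 25 and 15, and Ifi27 in 23 and 17. Channel B was the weaker channel for every one of the 4 genes, and over all listed probes it was usable in 56.2% of readings against 87.8% in channel A. The 4 genes together stood at 55.8% in channel B and 83.3% in channel A, close to the listed probes.

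Sorted by RNA instead of by channel, detection differed less. Collagen RNA gave a usable reading 20 times for Irf8, 19 for Usp18, 20 for Rsad2 and 21 for Ifi27. Control RNA gave 22, 26, 20 and 19 in the same order. Summed over the 4 genes, collagen RNA was read in 66.7% and control RNA in 72.5% of readings, beside 69.9% and 74.1% over all listed probes.

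Channel B was emptiest for 3 of the genes in pairs 1 and 2. There it held no usable reading of Rsad2 or Ifi27 in 12, and 2 of Irf8, against 9 of Usp18. The 4 genes were usable in 22.9% of channel B readings in pairs 1 and 2 and in 77.8% in pairs 3 to 5, while all listed probes stood at 48.0% and 61.7%. A pair gives a value only when both of its arrays measured both RNAs. Irf8, Rsad2 and Ifi27 therefore have values in pairs 3, 4 and 5, so that each of their replicates rests on a single pair, and Usp18 has values in pairs 1, 3, 4 and 5. No gene of the 4 was measured in all 5 pairs, so no genes with a like pattern over the pairs could be named.

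**Figure D1:**
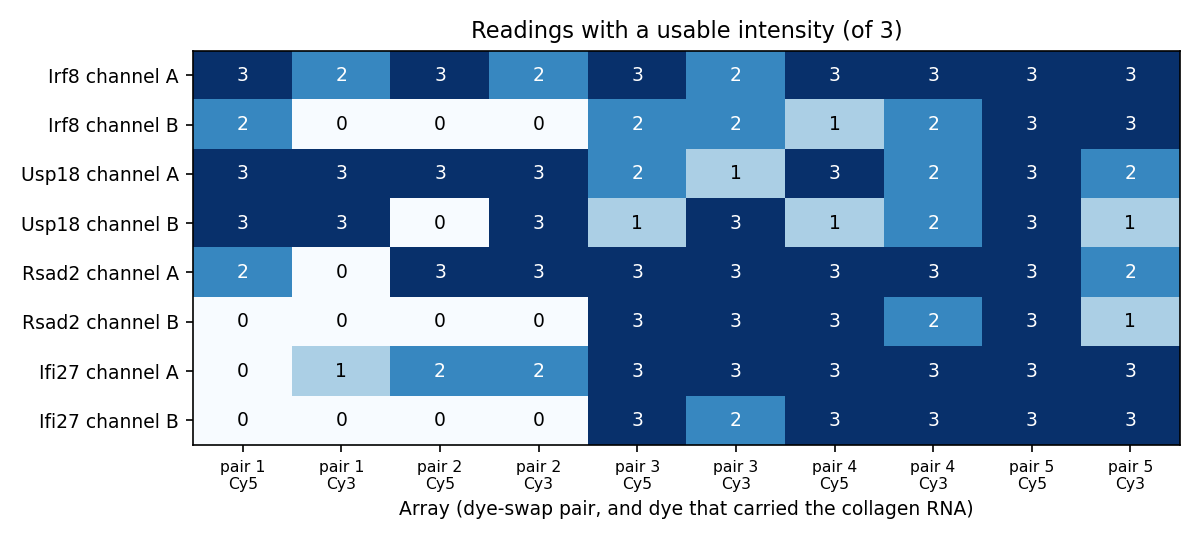
Number of usable readings, of 3, for each gene and channel (rows) on each of the 10 arrays (columns, named by dye-swap pair and the dye that carried the collagen RNA). Channel B is empty for Rsad2 and Ifi27 in pairs 1 and 2, and every gene is read in both channels in pairs 3 to 5.

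Where they were read, the 4 genes gave dim spots. Intensity divided by the spot's own local background, averaged over the readings of an array, ran from 0.237 to 2.85 over all genes, arrays and RNAs. The median over arrays was 0.838 for collagen and 0.83 for control RNA in Irf8, and 0.793 and 0.783 in Usp18. It was 0.705 and 0.685 in Rsad2, and 0.94 and 1.11 in Ifi27. A value under 1 means that the gene's signal was smaller than the background it was separated from. For Irf8 this was so in 8 of 9 arrays with collagen RNA and 6 of 8 with control RNA, and for Usp18 in 8 of 9 and 8 of 10. For Rsad2 it was so in 6 of 7 and 6 of 8, and for Ifi27, the brightest, in 4 of 8 and 3 of 7. The collagen and control values overlapped in all 4 genes.

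**Figure D2:**
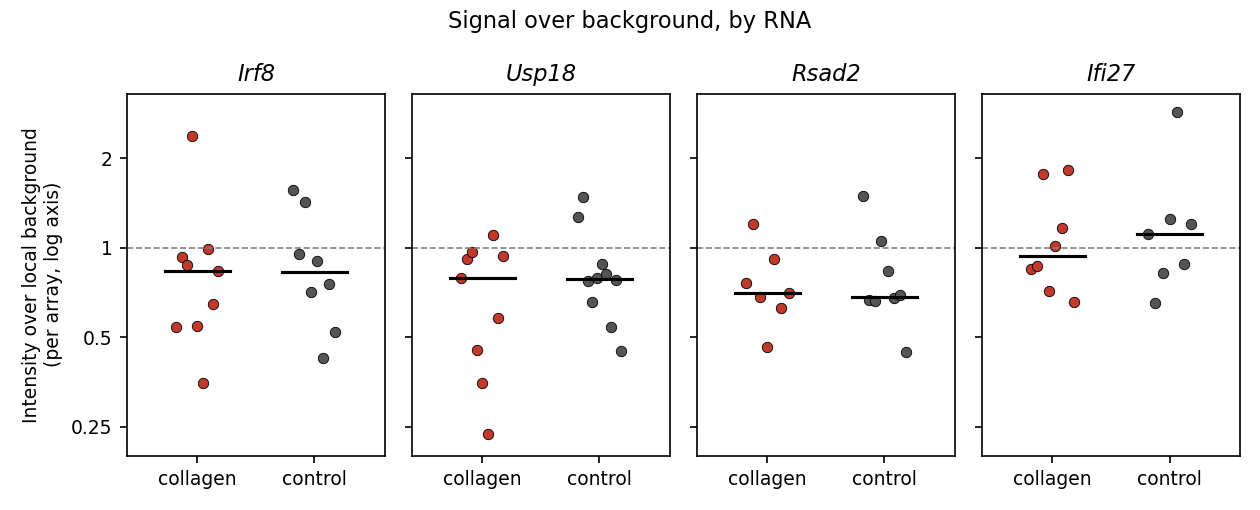
Background-corrected intensity over local background on each array (log axis), for collagen and control RNA, with the median as a bar and the level of the background as a dashed line at 1. Most points of Irf8, Usp18 and Rsad2 lie under the line, and the collagen and control points overlap for each gene.

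The collagen to control comparison asked whether arthritis shifts the expression of these genes in cortex. After adjustment for multiple testing no difference between collagen and control mice was detected in any of the 4 genes. Ifi27 was the one gene with a log2 ratio above 0 in every replicate, at a mean of 0.27 ± 0.13 (SD, n = 3). The means of Usp18, Rsad2 and Irf8 were below 0 and their replicates did not share a sign. Over the whole array, limma called 0 of 4125 probes at an adjusted p under 0.05 (0%), and 275 probes (6.67%) at an unadjusted p under 0.05. Of those 275, 175 were lower and 100 higher in collagen mice. Among the 4 genes, 1 had an unadjusted p under 0.05 and 0 an adjusted one.

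Irf8, the transcription factor, gave intensities that followed the channel at the lowest gain, A in pairs 4 and 5 and B in pair 3. At the lowest gain in pair 4, the array with collagen RNA in channel B read 36507 for collagen and 74394 for control RNA. The swapped array of that pair read 154674 for collagen and 45166 for control. In pair 5 the readings were 84610 for collagen and 103574 for control RNA, and on the swapped array 98244 and 52382. Channel A was thus brighter on all 4 of these arrays, whichever RNA it held. In pair 3 channel B was the brighter one at the lowest gain, at 116711 for collagen against 109362 for control RNA, and on the swapped array at 27353 for control against 24234 for collagen. Before normalisation the log2 ratio of collagen over control ran from -2.14 to 1.64 over the arrays.

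Normalisation by loess takes out the part of this dye difference that depends on intensity. After it, the log2 ratio of Irf8 was -0.93 and -0.19 on the arrays of pair 3, with collagen on Cy5 first and on Cy3 second. It was -0.32 and 0.50 in pair 4, and 0.01 and 0.06 in pair 5. Pair 1 gave -0.56 on its Cy5 array alone and did not enter the test. Irf8 was lower on 4 of 7 arrays and higher on 3. The replicate values were 0.09, 0.04 and -0.56, so replicates 1 and 2 lay close to 0 and replicate 3 lay apart below them. The mean was -0.15 (SE 0.15, 95% interval -0.50 to 0.21), and limma's p was 0.36 (adjusted p = 0.723). Without replicate 3 the mean was 0.06, on the other side of 0, and with median centring in place of loess it was 0.19. With a loess fitted to each printed grid of spots by itself (print-tip loess) it was -0.070. Without pairs 3 and 4 one pair was left, pair 5 at 0.04.

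Microglia carry most Irf8 in brain, so the markers of microglia and macrophages were set beside it. Of 24 such markers 12 had a probe, and each of the 12 was usable in at least 23 of 30 readings of channel A. Channel B was weaker, with 247 of 360 readings usable over the 12 against 330 in channel A, and 10 of 30 for Adgre1. In replicate 1 the median log2 ratio of the markers measured was 0.02, with 5 of 11 lower in collagen mice. In replicate 2 it was -0.06, with 6 of 12 lower. In replicate 3 it was -0.44, with 6 of 7 lower and a range of -0.61 to 0.17, beside the -0.56 of Irf8. Some markers of other cells were low in replicate 3 too, and others of the same lists were not. Among the neuron markers, the vesicle protein gene Syt1 was at -0.82 there, and Gad2 and Gad1, the enzymes that make the transmitter GABA, were at -0.77 and -0.41, although the median of all 11 was 0.04. The astrocyte marker Aldh1l1 was at -0.47, and Slc1a3, the other one measured, at 0.14. Of 4 markers of B cells and dendritic cells measured there 2 were lower, with a median of 0.06. They ran from Ms4a1 at -0.70 to Cd79b at 0.57. Cd3g, the 1 T cell marker measured, was at -0.54.

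The ratios of replicate 3 also changed with the place of a spot on the array. Probes in the first row of grids had a median of -0.30 in that replicate and those in the eighth row 0.19, and in row 5, which holds the Irf8 and Rsad2 spots, it was -0.12. The 5 low microglia markers lay in rows 1 to 4, while C1qb in row 6 was at 0.17 and Itgam in row 7 at -0.03. Under print-tip loess, which removes such a shift, the 7 measured markers of microglia in replicate 3 had a median of -0.26, with 7 of 7 lower, and the 11 neuron markers one of -0.04, with 6 lower. Irf8 was then at -0.31 in replicate 3. The part of these markers and of the spot's place in the Irf8 value was not tested, and in bulk tissue fewer cells and less RNA per cell cannot be told apart. Over the 3 replicates, 5 of the 6 markers that entered the test were lower, with a median of -0.16, and 0 passed at an adjusted p under 0.05 (0 also unadjusted).

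Usp18, the Isg15 protease and brake on signalling, was the best covered of the 4 genes, with both RNAs read on 9 arrays. At the lowest gain in pair 1, control RNA was brighter under both dyes, at 57112 against 22373 for collagen and at 44232 against 31008 on the swapped array, and so it was at the other gains. In pair 2 the array with collagen in channel A read 107400 for collagen and 40039 for control, and the swapped array read control RNA alone. In pair 5 the array with collagen in channel B read 82583 for collagen and 103551 for control. After loess the log2 ratio was -0.08 and -0.22 on the arrays of pair 1, -0.22 and 0.31 in pair 4, and -0.01 and 0.04 in pair 5. Pair 3 stood apart at -0.72 and -1.20. The single array measured in pair 2 gave 0.27 and did not enter the test. Usp18 was lower on 6 of 9 arrays and higher on 3.

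The low pair 3 of Usp18 rested on thin data. Each of its arrays gave a ratio in 1 of 3 readings, with collagen intensities of 27037 and 24466 against control intensities of 64089 and 62618. The collagen signal there was 0.453 and 0.352 of the local background. Pairs 4 and 5 were thin too, and 4 arrays of Usp18 in all rested on 1 reading. The Cy5 array of pair 4 did so with collagen RNA at 0.237 of the background. The Cy3 array of pair 5 did so with control RNA at 0.451. The replicate values were -0.05, 0.01 and -0.96, with replicate 3 made of pair 3 alone. The mean was -0.33 (SE 0.20, 95% interval -0.81 to 0.15), and limma's p was 0.141 (adjusted p = 0.643). Without replicate 3 the mean was -0.02, and with print-tip loess it was -0.15. Without pairs 3 and 4 it was -0.07 (limma adjusted p = 0.948). The grid that holds the Usp18 spot had a median log2 ratio of -0.18 over its 104 tested probes, and of -0.32 in pair 3.

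Rsad2, the antiviral radical SAM enzyme, gave a ratio on 6 arrays. In pair 4 its intensities at the lowest gain were 35404 for collagen and 51457 for control RNA, and on the swapped array 173519 for collagen and 64100 for control. Channel A was the brighter one in pairs 4 and 5 on all 4 arrays. In pair 3 channel B was brighter at the lowest gain, at 88248 for collagen against 70333 for control RNA, and on the swapped array at 74108 for control against 51502 for collagen. After loess the log2 ratio was -0.56 and 0.00 in pair 3, -0.15 and 0.29 in pair 4, and -0.23 and -0.36 in pair 5. Rsad2 was lower on 4 of 6 arrays, and pair 5 was the pair whose arrays both lay below 0. Of these, the Cy3 array rested on 1 reading, and the 3 readings of the Cy5 array were 0.10, 0.09 and -0.89. The replicate values were 0.07, -0.30 and -0.28, so replicate 1 lay above 0 and the others below it. The mean was -0.17 (SE 0.11, 95% interval -0.44 to 0.10), and limma's p was 0.179 (adjusted p = 0.657). With median centring the mean was 0.08, from the lowest-gain reading alone 0.02, and with print-tip loess -0.061. Without pairs 3 and 4 pair 5 was left, at -0.30. The readings of one array differed by a median range of 0.63 in log2 ratio, larger than the mean itself.

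Ifi27, the membrane protein, was the brightest of the 4 and the one with positive replicates throughout. At the lowest gain in pair 5 it read 267329 for collagen and 207085 for control RNA, and 237755 and 218428 on the swapped array. Collagen RNA was thus brighter in pair 5 under both dyes. In pair 4 control RNA was brighter under both dyes and at every gain, at 166335 against 130151 and at 223611 against 211193 at the lowest, although the pair mean after loess was 0.23. In pair 3 collagen RNA read 128095 against 58660 for control on one array and 66574 against 66037 on the other.

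After loess the log2 ratio of Ifi27 was -0.20 and 0.55 in pair 3, 0.66 and -0.20 in pair 4, and 0.15 and 0.68 in pair 5. It was above 0 on 4 of 6 arrays, and pair 5 alone was above 0 on both arrays. In pairs 3 and 4 the arrays of the pair had opposite signs. The replicate values were 0.23, 0.41 and 0.17. The mean of 0.27 (SE 0.10, 95% interval 0.03 to 0.51) is a fold of 1.21, and limma's p was 0.031 (adjusted p = 0.643). By unadjusted p the probe ranked 147 of 4125. The SD between its replicates, 0.126, was smaller than the median of 0.173 over all tested probes. Under print-tip loess the mean was 0.17, and under the 16 alternatives that measured Ifi27 it stayed above 0, with a lowest limma adjusted p of 0.511. Some of the 16 could not change it, such as leaving out pair 1 or pair 2, where Ifi27 had no ratio. Without pairs 3 and 4 pair 5 was left, at 0.41, and this pair was at 0.12 under print-tip loess. Its Cy3 array was at 0.055 under print-tip loess, in place of 0.68. The grid that holds the Ifi27 spot had a median log2 ratio of 0.15 in pair 5 after global loess. The part of the spot's place in the Ifi27 value was not tested.

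**Figure D3:**
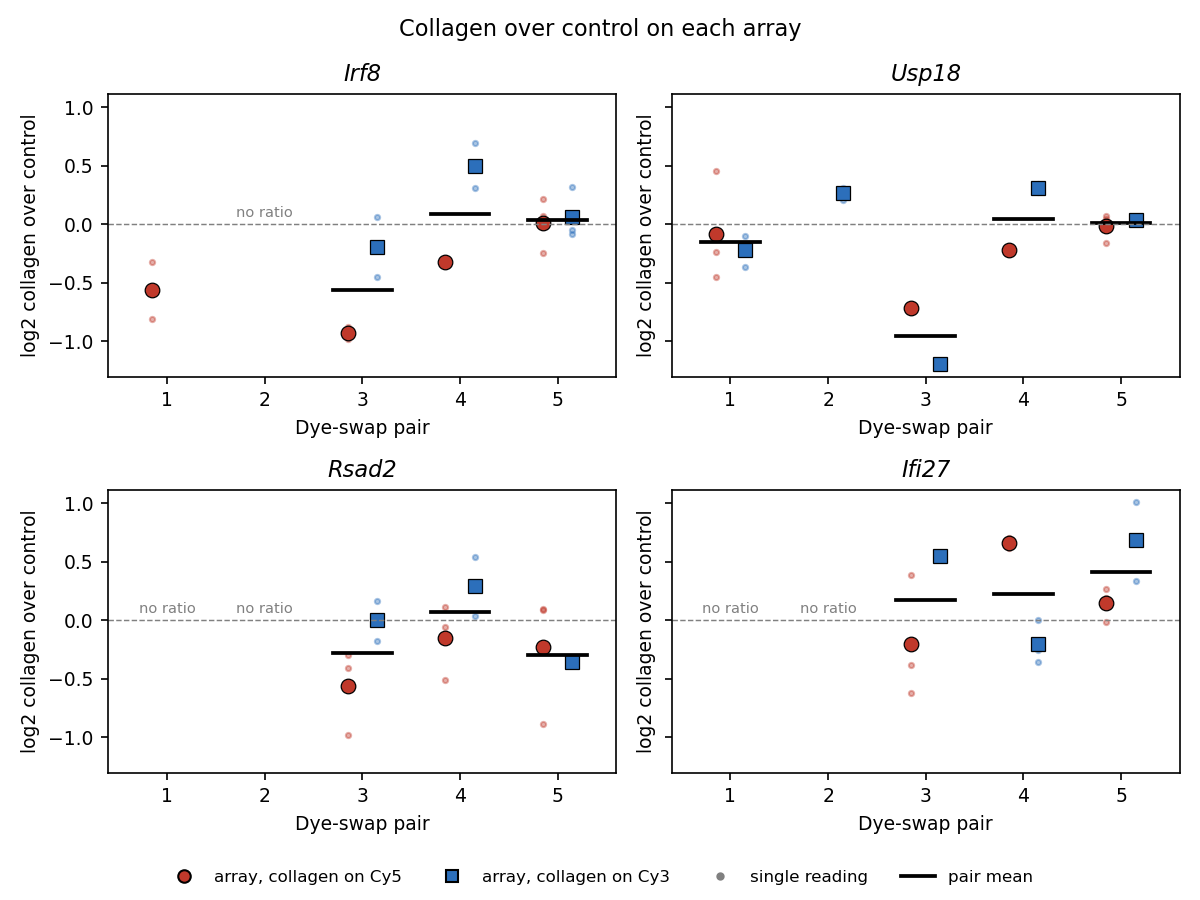
Log2 ratio of collagen over control after loess for each gene, by dye-swap pair, with collagen on Cy5 (circles) or Cy3 (squares), single readings as small points and the pair mean as a bar. Usp18 and Irf8 are lowest in pair 3, and Ifi27 has positive pair means in pairs 3, 4 and 5 with single arrays on both sides of 0.

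Ordered by log2 ratio, Ifi27 stood highest, then Irf8, Rsad2 and Usp18, and under print-tip loess Rsad2 stood before Irf8. The 95% intervals of each neighbouring pair of genes overlapped, and the differences between genes were not tested. The 4 genes did not move together in a replicate: in replicate 3 Ifi27 was at 0.17 while Usp18 was at -0.96, Irf8 at -0.56 and Rsad2 at -0.28. Of all 4125 probes, 35.6% had the same sign in all 3 replicates, which was so for 1 of the 4 genes. The replicates correlated with each other at 0.069 to 0.203 across probes, as a description over probes that are not independent. A log2 ratio of 0.2 or more in size was found in 21.1% of all tested probes.

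The dyes themselves were tested as a reference for what the arrays can resolve. The mean of Cy5 over Cy3 in a pair, in which the collagen difference cancels, was called for 88 of 4125 probes (2.13%) at an adjusted p under 0.05 with limma. None of the 4 genes was among them. The dye effect was -0.27 in Irf8 (limma adjusted p = 0.29) and -0.15 in Rsad2 (limma adjusted p = 0.538), and it was -0.07 in Ifi27 and 0.04 in Usp18. In Irf8 the dye effect left after loess was larger than the collagen difference. The mean collagen difference was larger in size than the mean dye effect in Ifi27, Usp18 and Rsad2. In Ifi27 the dye effect was -0.38, 0.43 and -0.27 in pairs 3, 4 and 5, so that opposite signs partly cancelled in its mean. The collagen ratios of the same pairs were 0.17, 0.23 and 0.41. In Usp18 the dye effect ran from -0.27 to 0.24 over the pairs.

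**Figure D4:**
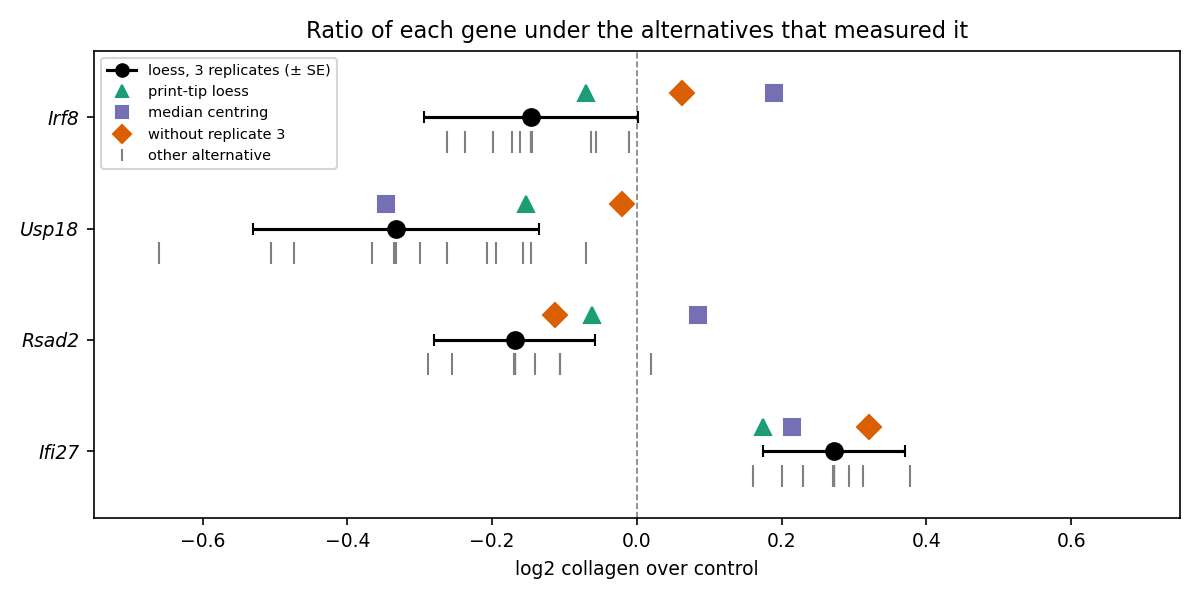
Mean log2 ratio of collagen over control for each gene under the loess fit (black, with SE) and under the other processing choices that gave it a value, on the log2 scale. Irf8 crosses 0 with median centring and without replicate 3, and Rsad2 with median centring and from the lowest-gain reading alone. Usp18 comes to -0.02 without replicate 3, and Ifi27 stays above 0. The authors' deposited table, whose log base is not stated, is left out.

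The rest of the interferon pathway was poorly visible on these arrays. Of 153 other interferon genes listed, 61 had a probe and 11 of those (18%) were measured in all 3 replicates, against 45.4% of all listed probes. Their probes were usable in 1617 of 1830 readings in channel A and 816 in channel B, and 14 never gave a complete pair. Of 4 probes for interferons none was measured in all replicates, including that of Ifnb1. The receptor gene Ifnar1, the transcription factors Irf1, Irf7 and Irf9, the DNA sensor Zbp1 and the antiviral genes Mx1, Ifit3, Oasl2 and Ifi44l also had a probe and were not measured in all replicates.

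Of the 11 genes measured, 9 had a log2 ratio above 0 and 2 below, with a median of 0.12 beside -0.02 over all tested probes, of which 54.5% were below 0. None passed limma's adjusted p under 0.05, and 0 had an unadjusted p under 0.05. Under print-tip loess the median of the 11 genes was 0.02, with 8 above 0 and 3 below, and 3 genes changed sign. Without pairs 3 and 4 the median was 0.04 over the 29 genes then measured. The median over these genes was 0.03 in replicate 1, 0.14 in replicate 2 and 0.10 in replicate 3.

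Among signalling genes, Pias1, a SUMO ligase, was at 0.24 (SE 0.10, limma adjusted p = 0.643), with replicates at 0.17, 0.12 and 0.42. Under print-tip loess Pias1 was at 0.14. Il10rb, a subunit of the interferon lambda receptor, was at 0.13 (-0.034 under print-tip loess), and the regulatory factor Irf3 was at -0.04 (0.048 under print-tip loess). Sting1, the adaptor of cytosolic DNA sensing, was at 0.11 (0.024 under print-tip loess).

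Isg15, the ubiquitin-like protein that Usp18 removes, was at 0.14 (SE 0.11) with replicates at -0.07, 0.26 and 0.23. Isg15 and Usp18 had opposite signs in replicate 3, at 0.23 and -0.96. Under print-tip loess the mean of Isg15 turned to -0.020, on the side of Usp18. Uba7, the enzyme that activates Isg15 for attachment, had a probe and lacked a value in replicate 1.

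Of the type I effectors, Cmpk2, a mitochondrial nucleotide kinase whose gene neighbours Rsad2, was at 0.12 (SE 0.10), while Rsad2 was at -0.17. The replicates of Cmpk2 were 0.25, 0.14 and -0.02, and those of Rsad2 were 0.07, -0.30 and -0.28. Under print-tip loess Cmpk2 was at 0.0035 and Rsad2 at -0.061. Parp14, an ADP-ribosyltransferase, was at 0.14 (0.0036 under print-tip loess), and Pml, which forms nuclear bodies, was at 0.10 (0.071). The membrane protein gene Ifitm2 was at 0.03 (0.14 under print-tip loess) and the exonuclease gene Isg20 at -0.03 (-0.0027).

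The interferon gamma list gave 1 measured gene, the GTPase Tgtp1, at 0.26 (SE 0.11, adjusted p = 0.643). Its replicates of 0.19, 0.48 and 0.10 were all above 0 and lay near those of Ifi27. Under print-tip loess its mean was 0.10 and that of Ifi27 was 0.17. Tgtp1 has a near-identical neighbour copy, Tgtp2, and a probe may not tell them apart.

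**Figure D5:**
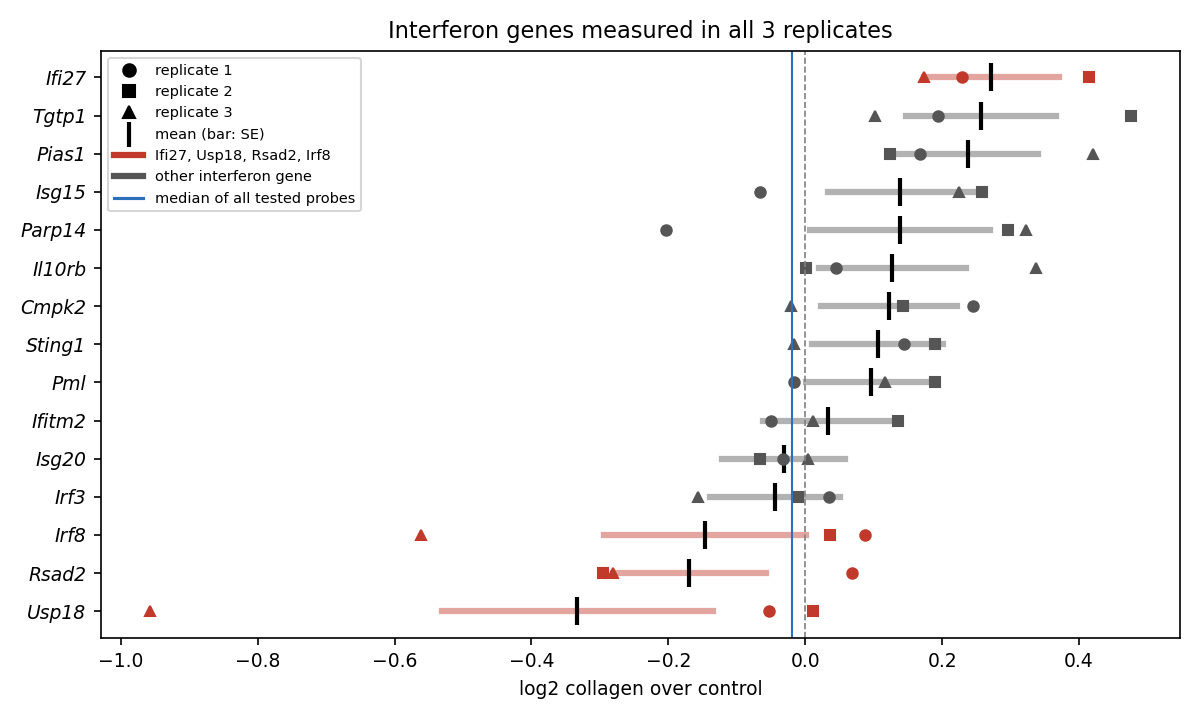
Log2 ratio of collagen over control for the 15 interferon genes measured in all 3 replicates, with each replicate as a symbol, the mean as a tick and the SE as a bar, beside the median of all tested probes (vertical line). Irf8, Rsad2 and Usp18 are the 3 lowest genes and Ifi27 is the highest.

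Markers of other cells were checked on the same fit. Of 13 neuron markers, 11 were on the array, and each of these gave a ratio in every replicate. Their median was -0.08, with 7 of 11 lower in collagen mice, and -0.02 under print-tip loess, and 0 were called. Of the astrocyte markers 2 were tested, 1 lower and 1 higher, and of the oligodendrocyte markers 1, Mag, at -0.08. The 3 T cell markers and 3 endothelial markers with a probe were not measured in all replicates, so that an influx of T cells could not be followed here. Of 11 markers of B cells and dendritic cells, which also carry Irf8, 7 were on the array and 2 entered the test, both above 0 and not called. One marker of that list, Bst2, is also in the list of type I effectors.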

How the data were processed

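Prefrontal cortex RNA was compared on 10 in-house printed 2-colour oligonucleotide arrays. Per the file headers, each of 3 readings per array holds a spot intensity that the authors had corrected for background, the local background intensity and a flag for channels A and B. The authors' deposited table holds 1 score for every spot of an array, centred near 0 on an unstated log base. It served as an alternative. Scanner and image software: not given in the sources used here.

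Global loess in limma (span 0.3) was applied to the log2 ratio of B over A of each reading. The ratios were averaged over readings, turned to collagen over control, and averaged over a pair's arrays, both of which were needed, and then over a replicate's pairs. The 4125 probes measured in all 3 replicates were fitted with an intercept (lmFit, eBayes, two-sided, limma 3.58.1, statmod 1.5.0, R 4.3.3), and p-values were adjusted by Benjamini-Hochberg. The SE given is the moderated one of limma. The fit was tested on simulated data. A usable spot had flag A, B, C or S and an intensity above 0, which held for 75.5% to 94.0% of the spots of a reading in A and for 32.0% to 79.8% in B. The number of arrays limits the precision.

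Spots were named through the platform table and RefSeq symbols (GRCm38.p6). RefSeq covered 99.0% of 9066 probes that name a single gene. With the array's build not given in the sources used here, coordinates are printed for RefSeq promoter windows alone. The members and the gene lists were chosen with earlier results of these data known. Named genes were the 4 probes, and every other interferon gene measured in all replicates, these being under 30. Alternatives (1, leaving out pairs 3 and 4, was added after seeing the data) covered background correction, normalisation, readings, spot filters, the authors' table, the replicate unit and left-out replicates and pairs.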

Additional observations from a re-analysis of the deposited data

How the results depend on the processing

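The ratio of Ifi27 kept its sign in all 16 alternatives that gave it a value. It ran from 0.16 to 0.38 on the log2 scale and was 0.059 in the authors' deposited table, in that table's own unit. The log2 ratio of Usp18 kept its sign in all 16 (-0.66 to -0.02). Rsad2 kept its sign in 13 of 15, turning to 0.084 with median centring and to 0.019 from the lowest-gain reading alone. Some alternatives could not move Ifi27 or Rsad2, which have values in pairs 3, 4 and 5 alone. These were leaving out pair 1 or pair 2, 5 pairs as 5 samples and the fits over 10 arrays with and without a dye term. They gave 0.27 for Ifi27 and -0.17 for Rsad2 again. Irf8 has values in the same pairs, and leaving out pair 1 or pair 2 and 5 pairs as 5 samples gave it -0.15 again. Leaving out pair 2, where Usp18 has no value, gave -0.33 for Usp18 again. These alternatives are among those counted as keeping the sign. Irf8 kept its sign in 13 of 15, turning to 0.19 with median centring, and it ranged from -0.26 to 0.062 when 1 replicate was left out. Leaving out 1 replicate gave 0.20 to 0.32 for Ifi27, -0.50 to -0.02 for Usp18 and -0.29 to -0.11 for Rsad2. None of the 4 genes passed the adjusted threshold in any alternative that gave a value. Of 22 alternatives, 6 gave no value for Ifi27 and Usp18 and 7 for Rsad2 and Irf8, among them the highest-gain reading alone and the filters on readings and on dim spots. The cause of the changes was not tested. The count of called probes was 0, except for 1 when only spots with an intensity at least the background were kept (Efhc2, -0.74, adjusted p = 0.034, 1 other interferon gene left), 1 with scaling between arrays (Fap, 0.97), 1 in the authors' deposited table (Efhc2, -0.47 in its own unit) and 0 to 1 when a replicate was left out (Xist, 5.06, adjusted p = 0.00068, without replicate 2). These genes were named after their values were seen. The median of the other interferon genes, 0.12, was 0.20 with normexp, 0.066 without background correction, 0.024 with print-tip loess and 0.034 under median centring. It was 0.036 in spots measured in all readings and -0.047 in spots at least as bright as the background. In the authors' deposited table it was 0.0081, in that table's own unit. It was 0.18 without pair 1, 0.055 without pair 5 and 0.043 without pairs 3 and 4 (added after seeing the data). When a replicate was left out it ran from 0.045 to 0.12. The count of 88 dye-affected probes was 41 with normexp, 277 without background correction, 54 with print-tip loess, 21 under median centring, and 53 to 159 with a replicate left out. With the replicate number as a replicate block over 10 arrays, 0 probes were called and the log2 ratios were 0.27 for Ifi27, -0.16 for Usp18, -0.17 for Rsad2 and -0.20 for Irf8, at a consensus correlation of -0.157. The groups share each array, so that pairing is within the array. Weak signal over background limits all 4 genes.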
